A study of Homo sapiens with 12 samples.

Results

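The vesicle libraries of the colorectal cancer line HT55 were compared with those of 2 other lines, SW1116 and RCM-1. They were chosen by cell line name: both HT55 libraries were set against the mean of the SW1116 and RCM-1 lines on the raw counts, and Car-1, MDST8 and Hutu80 were left out of the contrast. It uses 6 of the 12 libraries of the series, 2 from each of 3 lines. All 3 lines are established human lines whose labelled cell type is CRC (colorectal cancer), and none carries a treatment or an engineered allele. Fetal bovine serum and antibiotics were added to their DMEM/F12 medium. The vesicles were collected by ultrafiltration and then size-exclusion chromatography, and their small RNA was sequenced with a low-input protocol that tags each molecule. The series set out to compare vesicles of the CMS2 and CMS4 subtypes, but the labels tie no line to a subtype, so the comparison is one of cell lines. Each group is 1 line, so line and any subtype, culture or handling difference cannot be told apart. No label tells whether both libraries of a line stem from independent cultures. The p-values therefore rest on a spread between libraries that could be technical.

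Cells release extracellular vesicles, small particles with a lipid membrane, and the microRNAs (miRNAs) in them can be read in blood. A miRNA is cut from a hairpin whose arms each give a mature strand, named 5p and 3p, and usually one of them is kept far more than its partner. Its seed, the stretch near the 5′ end that pairs with messenger RNA, sets most of its targets, so miRNAs with a shared seed are treated as a family. In colon epithelium the miR-192 and miR-194 genes, miR-375 and the miR-200 family are known for high expression, and miR-10a and miR-196b are read out with the HOX genes that encode position along the gut.

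A level below is scaled CPM, the count set to a common library total after trimmed-mean (TMM) correction. A difference is HT55 minus the mean of the 2 other lines on the log2 scale, from the edgeR fit, with its standard error (SE). Total counts ran from 138753 to 622800 over the 6 libraries, and HT55 had 138753 and 206808, so that 1 count was worth 7.21 and 4.83 CPM before scaling there. Of 1636 miRNAs in the table, 318 were tested, and they held 99.76% of the counts of the 6 libraries. The 2 libraries of each line differed by more than sampling noise (chi-square per degree of freedom 20 to 34.2) and were kept as separate samples. The epithelial markers of the labelled tissue were present in all 3 lines. miR-200c-3p, an epithelial miRNA, lay between 68500 and 105000 scaled CPM over the 6 libraries, and miR-192-5p between 4929 and 15620. The fibroblast and muscle list summed to 326 to 964 scaled CPM over the 6, with up to 547 for miR-1-3p of muscle and up to 252 for miR-143-3p.

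The mature sequences of the miRNAs on which the results turn are given below 5′ to 3′, as in RefSeq (GRCh38.p14), with the seed (bases 2 to 8) in capitals. RefSeq held a sequence for 286 of the 318 tested miRNAs and for 53 of the 55 that differed. The first set is the X-linked miRNAs that were higher in HT55, shown because 3 of them come from one gene cluster and yet carry different seeds. The second set holds 2 short RNAs that begin alike when shifted, the third the entries that stood apart in 1 HT55 library, and the fourth the arms of the epithelial hairpins that moved. The last set is from miRNAs that were lower in HT55, among them both strands of one locus and a pair with a shared seed.
miR-509-3p: uGAUUGGUacgucuguggguag
miR-508-3p: uGAUUGUAgccuuuuggaguaga
miR-513a-5p: uUCACAGGgaggugucau
miR-3937: aCAGGCGGcuguagcaauggggg
miR-1246: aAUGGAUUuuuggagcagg
miR-1290: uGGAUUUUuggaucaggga
miR-5100: uUCAGAUCccagcggugccucu
miR-1260a: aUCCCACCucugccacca
miR-1260b: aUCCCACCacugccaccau
miR-4454: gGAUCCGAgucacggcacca
miR-7977: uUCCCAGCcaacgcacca
miR-194-5p: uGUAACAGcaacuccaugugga
miR-194-3p: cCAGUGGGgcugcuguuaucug
miR-200b-5p: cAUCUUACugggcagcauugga
miR-200b-3p: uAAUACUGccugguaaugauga
miR-338-5p: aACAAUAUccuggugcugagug
miR-3065-5p: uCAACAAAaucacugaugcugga
miR-361-3p: uCCCCCAGgugugauucugauuu
miR-574-5p: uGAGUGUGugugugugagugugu
miR-21-5p: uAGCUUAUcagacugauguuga
miR-221-3p: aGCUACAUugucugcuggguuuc
miR-222-3p: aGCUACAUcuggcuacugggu

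HT55 vesicles differed from those of the 2 other lines in both directions. Those higher included X-linked testis-type miRNAs such as miR-509-3p, and miR-1246 and miR-1290. Those lower included miR-338-5p, miR-361-3p and miR-574-5p, and the abundant oncogenic miR-21-5p was also lower. In edgeR's quasi-likelihood test, 30 miRNAs were higher in HT55 (9.43% of those tested) and 25 were lower (7.86%) at an adjusted p below 0.05. The higher ones include miR-508-3p, miR-3937 and miR-513a-5p, which passed the filter on low counts through HT55 alone. The lower ones include miR-338-5p, which passed it through SW1116 and RCM-1 alone. Both HT55 libraries lay above all 4 others for 61 of the 318 tested miRNAs (19.2%) and below them for 48 (15.1%), and for 25 of the 30 higher and 20 of the 25 lower ones. The balance depended on the scaling: with library totals as the only scaling, which moved the difference of a miRNA up by a median of 0.262, 47 were higher and 10 lower. No called miRNA changed its sign with that scaling or with RLE size factors. Without HT55 replicate 1 the counts were 22 higher and 8 lower, without HT55 replicate 2 they were 21 and 7, and without SW1116 replicate 2 they were 24 and 16.

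**Figure D1:**
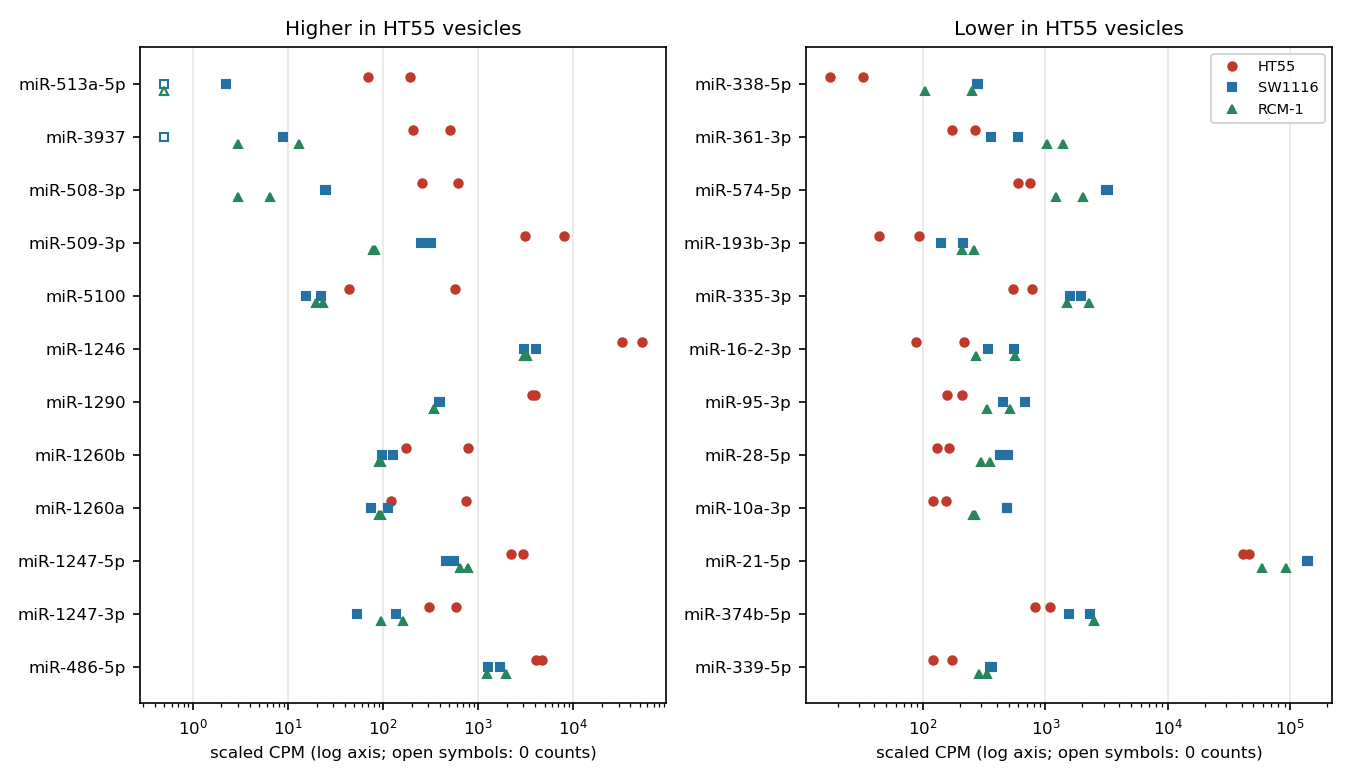
Levels of the 12 miRNAs with the largest difference in each direction that met the naming rule, in scaled CPM on log axes, with 1 symbol per library. Circles are HT55, squares SW1116 and triangles RCM-1, and open symbols mark 0 counts, drawn at the left edge. In every row the 2 HT55 circles lie outside the other 4 symbols, and miR-5100, miR-1260a and miR-1260b show the widest gap between the 2 HT55 libraries.

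Members of an X-chromosome cluster that is normally read in testis were higher in HT55. miR-509-3p, its most abundant member here, stood at 8077 and 3101 scaled CPM in the HT55 libraries, at 317 and 251 in SW1116 and at 78.4 and 82.8 in RCM-1. The difference was 5.19 ± 0.34 (SE; adjusted p = 3.14e-11), with both HT55 libraries far above the other 4 and replicate 1 the higher. miR-509-3p is cut from 3 neighbouring hairpins, of which MIR509-1 lies at chrX:147260532-147260625 (GRCh38, minus strand, intergenic). miR-508-3p, from a hairpin at chrX:147236913-147237027 (minus strand, intergenic), had 617 and 256 scaled CPM in HT55, 24.6 and 25.1 in SW1116 and 6.54 and 2.96 in RCM-1. Its difference was 5.31 ± 0.70 (adjusted p = 6.3e-06). miR-513a-5p had 22 and 15 counts in the HT55 libraries and 1 count over the other 4 together. The ratio of its pooled CPM was 178, with a 95% counting interval of 30.1 to 7230 (adjusted p = 0.000203). The intervals given for such ratios cover counting error only.

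Of the 14 members of the list with a count in some library, these 3 could be tested. miR-508-3p and miR-513a-5p passed the filter on low counts through the HT55 libraries alone, so the filter itself fixed that they were higher there, whereas miR-509-3p reached its cutoff in all 12 libraries. Members too sparse for the test also had more counts in HT55. miR-514a-3p had 28 counts in HT55 and 8 in the other 4 libraries, a CPM ratio of 16.9 (95% counting interval 7.49 to 42.8), but 26 of the 28 were in replicate 2. miR-513c-5p had 24 against 8 (ratio 14.5, 6.29 to 37.2) and miR-509-3-5p 34 against 14 (ratio 11.7, 6.12 to 23.6). miR-509-5p had 15 counts in HT55 and 0 in the others, and the lower end of the 95% counting interval of its CPM ratio was 17.3. Against an assumed floor of 3 counts over those 4 libraries its ratio was 24.1. The neighbouring miR-888 to miR-892 group did not share this: miR-891a-5p had 6 counts in HT55 against 19 (ratio 1.52, 0.498 to 3.97). The summed level of the list was 9388 and 3780 scaled CPM in HT55, 84.97 to 410.9 in SW1116 and RCM-1 and 63.5 to 186 in the other 3 lines, so it was highest in HT55 of all 12 libraries.

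miR-3937 is X-linked too but lies elsewhere (chrX:39661216-39661321, plus strand, intergenic). It had 512 and 205 scaled CPM in HT55, 8.93 and 0 in SW1116, 13.1 and 2.96 in RCM-1 and at most 12.2 in the other 3 lines. The difference from the mean of SW1116 and RCM-1 was 5.83 ± 0.82 (adjusted p = 1.87e-05), on 103 counts against 7, and it too passed the filter through HT55 alone. Both HT55 libraries were well above every other library of the series. miR-509-3p passed in every alternative setting. So did miR-508-3p and miR-3937, and miR-513a-5p wherever it had an adjusted p (DESeq2 gave none). The filter fixed the direction of miR-508-3p, miR-3937 and miR-513a-5p, so their passes on the same counts add no support.

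miR-1246 and miR-1290, small RNAs often measured in the vesicles and sera of patients with cancer, were also higher in HT55. miR-1246 reached 53090 and 32720 scaled CPM in HT55 against 3028 and 4106 in SW1116 and 3013 and 3241 in RCM-1, a difference of 3.68 ± 0.27 (adjusted p = 1.78e-10). miR-1290 stood at 3691 and 3976 in HT55 against 386 and 395 in SW1116 and 340 and 343 in RCM-1, a difference of 3.39 ± 0.30 (adjusted p = 3.61e-09). HT55 did not overlap the other 4 libraries for either, and the HT55 libraries of miR-1290 were nearly equal. Outside the contrast, levels of miR-1246 ran from 3137 to 19000 scaled CPM in Car-1, MDST8 and Hutu80, so HT55 was highest of the 6 lines. The whole 19-base sequence of miR-1246 occurs in annotated small nuclear RNA transcripts under 8 gene names, U2 among them (GENCODE release 29, 5722 short non-coding transcripts searched). miR-1290 shares a stretch of only 12 bases with transcripts under 20 gene names, U2 among them. That was the shortest stretch searched for, and miR-509-3p and miR-3937 also share 12 bases with another short RNA. Reads of miR-1246 and of U2 fragments with these letters cannot be told apart by sequence.

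A further group was high in 1 HT55 library. miR-5100 (chr10:42997563-42997681, plus strand, intergenic) had 43.4 scaled CPM in HT55 replicate 1 and 567 in replicate 2, against 15.7 to 22.3 in SW1116 and 19.6 to 23.6 in RCM-1. miR-1260a had 122 and 749 in HT55 and 75.2 to 114 in the other 4, and miR-1260b, which has the same seed, had 174 and 781 against 91.5 to 127. The 2 HT55 libraries were above the other 4 for these 3 entries, narrowly in replicate 1. The differences were 3.91 ± 0.61 for miR-5100 (adjusted p = 0.000145), 2.24 ± 0.46 for miR-1260a (adjusted p = 0.00137) and 2.25 ± 0.42 for miR-1260b (adjusted p = 0.000417). All 3 calls ended without HT55 replicate 2, where the adjusted p values were 0.485, 0.786 and 0.445.

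The same library was the higher one for miR-4454 (122 and 632 scaled CPM), miR-7977 (17.4 and 293), miR-7704 (26.1 and 344) and miR-4497 (69.5 and 186). For these 4, HT55 replicate 1 was not above all SW1116 and RCM-1 libraries, and for miR-7977 and miR-7704 it was the lowest of the 6. Their differences were 1.83, 2.67, 1.87 and 2.15 with adjusted p values of 0.0156, 0.00598, 0.0477 and 0.026, and without HT55 replicate 2 those became 0.931, 0.916, 0.743 and 0.467. miR-7977 and miR-7704 then changed sign, to -0.46 and -0.91. The calls of miR-4454, miR-4497 and miR-7704 also ended without some of the SW1116 and RCM-1 libraries (adjusted p 0.053 to 0.103). Car-1 and Hutu80 also carried miR-5100 and the miR-1260 pair at high levels, with 1455 scaled CPM of miR-5100 in Car-1 replicate 1. Of 29 higher miRNAs with a sequence, 3 end in the letters cca (miR-1260a, miR-4454 and miR-7977), against 4 of all 286 with a sequence; cca is the triplet that cells add to the 3′ end of transfer RNAs.

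**Figure D2:**
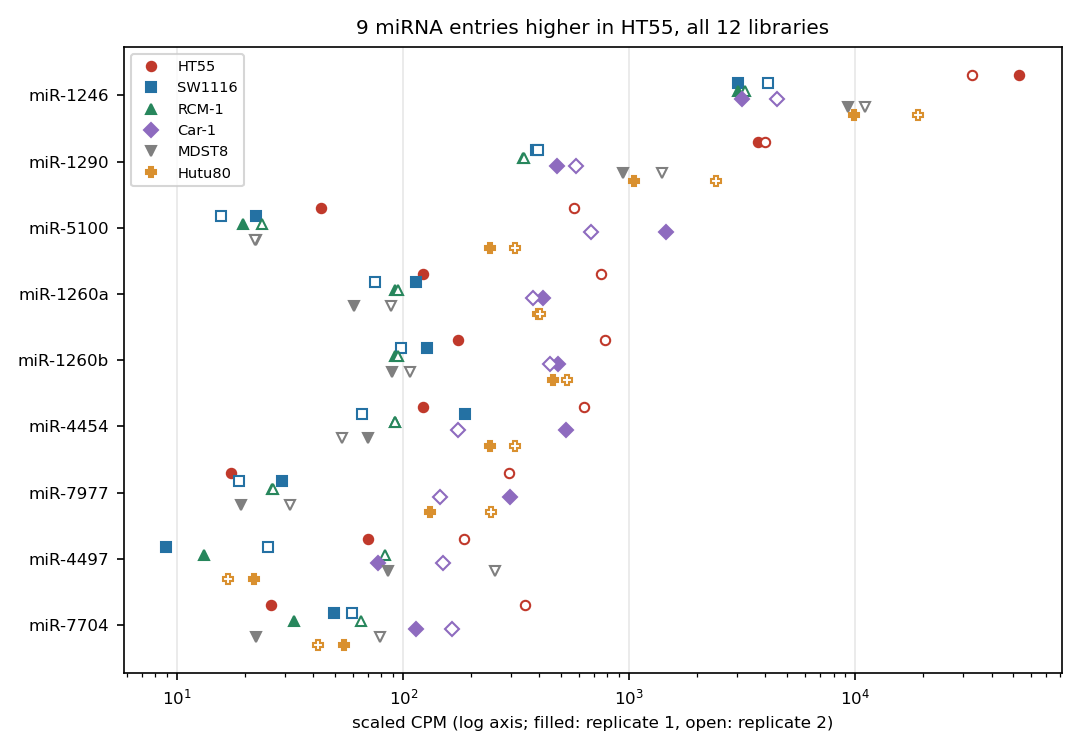
Levels of 9 entries that were higher in HT55, in scaled CPM on a log axis, in all 12 libraries of the series; filled symbols are replicate 1 and open symbols replicate 2. The HT55 circles lie together and above every other library for miR-1246 and miR-1290, while for the other 7 entries the open HT55 circle lies well to the right of the filled one.

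Both arms of the miR-1247 hairpin were higher in HT55. The hairpin (chr14:101560287-101560422, minus strand) overlaps an exon of DIO3OS, a non-coding gene, next to the imprinted gene cluster of that chromosome. miR-1247-5p had 2961 and 2218 scaled CPM in HT55, 556 and 461 in SW1116 and 647 and 790 in RCM-1, a difference of 2.09 ± 0.30 (adjusted p = 1.87e-05). miR-1247-3p, the scarcer arm, had 582 and 302 against 53.3 to 163 (difference 1.98 ± 0.56, adjusted p = 0.0168). Both HT55 libraries were above the other 4 for each arm. The call for the 3p arm ended without HT55 replicate 1 (adjusted p = 0.272), SW1116 replicate 2 (0.0559) or RCM-1 replicate 2 (0.0575).

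miR-486-5p, an abundant miRNA of red blood cells that is also made in muscle, had 4751 and 4106 scaled CPM in HT55, 1679 and 1263 in SW1116 and 1948 and 1251 in RCM-1. Its difference was 1.53 ± 0.25 (adjusted p = 0.00014), and the HT55 libraries did not overlap the others. It was the one called member of 11 tested in a list of blood, serum and immune cell miRNAs (9.43% of all tested were higher). The median difference of that list was 1.01, against 0.06 over all tested miRNAs, and 9 of its 11 members were above 0. Its summed level was 6557 and 6166 scaled CPM in HT55, 1969 to 3713 in SW1116 and RCM-1 and 2064 to 5060 in the other 3 lines. Some markers leaned higher without a call. miR-451a of red cells had 400 and 344 scaled CPM in HT55 (difference 0.94, adjusted p = 0.0723). miR-223-3p of myeloid cells had 573 and 739 (1.01, adjusted p = 0.0513), and miR-122-5p of liver had 43.4 and 107 (1.30, adjusted p = 0.231). With library totals as the only scaling miR-451a and miR-223-3p were called (adjusted p = 0.0247 and 0.016). miR-223-3p was also called with limma-voom, the 6 libraries alone and the replicate number as a block (0.0488, 0.0346 and 0.0363). miR-150-5p of the same list went the other way (difference -0.53, adjusted p = 0.447). Its mean was 651 scaled CPM over the RCM-1 libraries and 73.6 over those of SW1116, with HT55 between them at 149. The difference of miR-142-5p was 0. The cells were cultured in fetal bovine serum, and the part of serum or of other cells in these levels was not tested.

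Of the intestinal epithelial miRNAs, 5 were tested, and 2 were higher and 2 lower in HT55. Of all tested miRNAs, 9.43% were higher and 7.86% lower. miR-192-5p, from a hairpin at chr11:64891137-64891246 (minus strand, exon of the non-coding gene MIR194-2HG), had 5593 and 4929 scaled CPM in HT55, 10780 and 7768 in SW1116 and 15620 and 13260 in RCM-1. The HT55 libraries were below the other 4, and the difference was -1.14 ± 0.26 (adjusted p = 0.00311, and 0.104 without HT55 replicate 2). miR-215-5p has the seed of miR-192-5p and was not called: it had 69.5 and 65.1 scaled CPM in HT55, 58.1 and 75.2 in SW1116 and 255 and 287 in RCM-1. miR-375-3p, of gut epithelium and endocrine cells, had 5767 and 6100 in HT55, 1224 and 1451 in SW1116 and 6125 and 8022 in RCM-1. Its difference of 0.95 ± 0.25 (adjusted p = 0.00899) therefore came with HT55 levels above those of SW1116 and below those of RCM-1, and the call ended without HT55 replicate 1 (adjusted p = 0.053) or replicate 2 (0.061).

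The arms of miR-194 went in opposite directions. miR-194-5p, the major arm, had 2823 and 2674 scaled CPM in HT55, 5748 and 3946 in SW1116 and 5373 and 6538 in RCM-1 (difference -0.97 ± 0.26, adjusted p = 0.0104). miR-194-3p had 912 and 809 in HT55, 217 and 351 in SW1116 and 386 and 328 in RCM-1 (difference 1.44 ± 0.35, adjusted p = 0.00582). For both arms the HT55 libraries lay outside the range of the other 4. The 5p arm can come from 2 hairpins, MIR194-1 at chr1:220118157-220118241 beside miR-215 and MIR194-2 at chr11:64891355-64891439 beside miR-192, whereas the 3p sequence is annotated for MIR194-2 alone. The call for the 5p arm ended without HT55 replicate 1 (adjusted p = 0.0876), HT55 replicate 2 (0.171) or under library totals (0.0763), and that for the 3p arm without HT55 replicate 1 (0.0587).

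Taken within each library, the log2 ratio of the 5p to the 3p arm of miR-194 was 1.63 and 1.73 in HT55, 4.73 and 3.49 in SW1116 and 3.80 and 4.32 in RCM-1. The means were 1.68 ± 0.07 (SD, n = 2) and 4.08 ± 0.55 (SD, n = 4), a difference of -2.41. A ratio of arms within a library does not depend on the scaling of that library. In the exact two-sided permutation test p was 0.0667, the smallest that 15 relabellings of 2 and 4 libraries allow. The 4 libraries come from 2 lines, which the relabelling ignores, so this p does not measure the spread between lines. After adjustment over 40 hairpins it was 0.445. These are the hairpins whose arms were both tested and had a count in each of the libraries compared. Of those 40 ratios, 9 did not overlap between HT55 and the other 4 libraries (22.5%). The 9 were picked out after their values were seen. miR-181a (difference -1.01) and miR-574 (-0.82) leaned to the 3p arm in HT55 like miR-194, and miR-193b (1.75), miR-9 (1.10) and miR-221 (0.81) leaned to the 5p arm. In the other 4 libraries the miR-193b ratio spread from -4.32 to -1.32, and its unadjusted permutation p was 0.2.

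**Figure D3:**
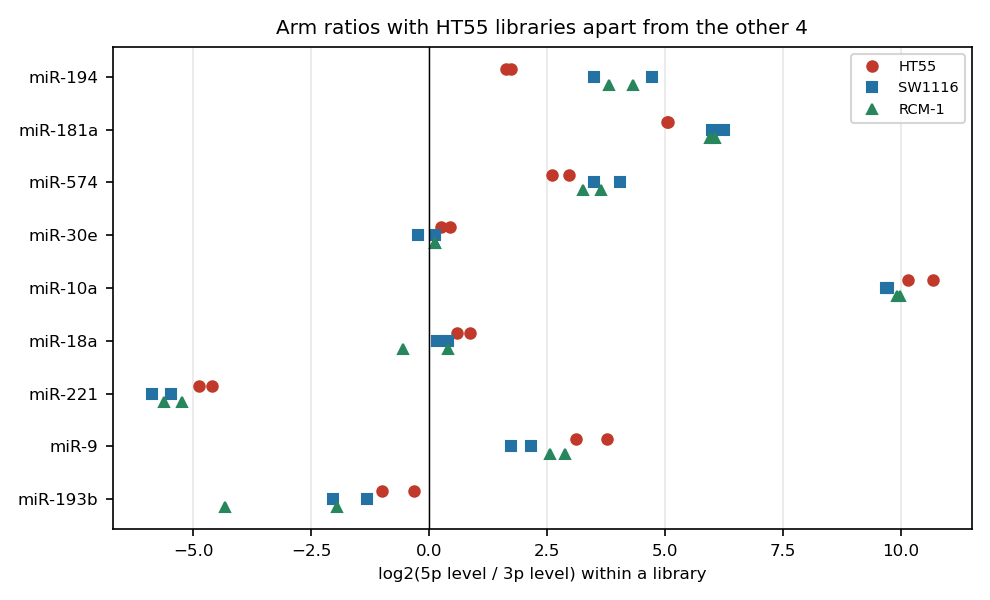
The log2 ratio of 5p to 3p level within a library for 9 hairpins, with 1 symbol per library. Their HT55 libraries lie outside the range of the SW1116 and RCM-1 libraries. They are from 40 hairpins with a count for both arms in each of these libraries. miR-194 has the lowest difference, with HT55 at 1.63 and 1.73 and the other 4 libraries between 3.49 and 4.73.

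The miR-200 family holds epithelial cells in their state by repressing ZEB1 and ZEB2. Over all tested miRNAs 9.43% were higher and 7.86% lower, and of the 7 tested family members 2 were higher and none lower. Both were arms of the miR-200b hairpin (chr1:1167104-1167198, plus strand, intergenic). miR-200b-3p had 46390 and 32990 scaled CPM in HT55, 23270 and 23880 in SW1116 and 11010 and 17520 in RCM-1 (difference 1.11 ± 0.24, adjusted p = 0.00236). miR-200b-5p had 2076 and 1381 in HT55 against 433 to 693 in the other 4 (difference 1.50 ± 0.35, adjusted p = 0.0043). Both HT55 libraries were above all 4 others for both arms, and both calls ended without HT55 replicate 1 (adjusted p = 0.0849 and 0.0828). The other members of the same gene cluster were not called: miR-200a-3p had 1859 and 2209 scaled CPM in HT55 and 1410 to 1878 elsewhere (difference 0.29, adjusted p = 0.558), and miR-429, with the seed of miR-200b-3p, had 469 and 312 against 195 to 389. miR-200a-5p, with the seed of miR-200b-5p, had 382 and 307 against 91.5 to 257 (difference 0.97, adjusted p = 0.135). Its HT55 libraries were both above the other 4, and library totals as the only scaling gave a call (adjusted p = 0.0481). miR-141-3p, from the second cluster of the family, had 130 and 153 in HT55 against 213 to 497 (difference -1.12, adjusted p = 0.135). The median of the family was 0.41, against 0.06 over all tested miRNAs.

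Among the lower miRNAs, miR-338-5p and miR-3065-5p come from opposite strands of a single locus. miR-338 is known from neurons and glia and lies in an intron of the kinase gene AATK (chr17:81125883-81125949, minus strand). The miR-3065 hairpin overlaps it on the plus strand (chr17:81125877-81125955). miR-338-5p had 17.4 and 32.6 scaled CPM in HT55, 284 and 276 in SW1116 and 105 and 251 in RCM-1 (difference -3.07 ± 0.68, adjusted p = 0.00297, on 9 counts in HT55), and it passed the filter on low counts through SW1116 and RCM-1 alone. miR-3065-5p had 1 count in each HT55 library and 17 to 35 in each of the other 4, a pooled CPM ratio of 0.0893 with a 95% counting interval of 0.0107 to 0.33 (adjusted p = 0.026). HT55 was below all 4 other libraries for both. For miR-338-5p the filter itself fixed this direction, so passing on the same counts in other settings adds no support. The call for miR-338-5p passed in every alternative setting, whereas that for miR-3065-5p ended without HT55 replicate 1 (adjusted p = 0.0828), HT55 replicate 2 (0.19), SW1116 replicate 2 (0.053) or RCM-1 replicate 1 (0.0554).

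Both arms of miR-361, which lies in an intron of CHM (chrX:85903636-85903707, minus strand), were lower in HT55. miR-361-3p had 174 and 265 scaled CPM in HT55, 357 and 592 in SW1116 and 1033 and 1384 in RCM-1 (difference -1.76 ± 0.37, adjusted p = 0.00203). miR-361-5p had 391 and 409, 578 and 592, and 948 and 1144 (difference -0.97 ± 0.32, adjusted p = 0.0368). For each arm HT55 was lowest, SW1116 next and RCM-1 highest. The 3p call held in every alternative setting, and the 5p call ended in 7 of 15, among them the removal of HT55 replicate 1 (adjusted p = 0.245), HT55 replicate 2 (0.259), SW1116 replicate 2 (0.0551) or RCM-1 replicate 2 (0.0926).

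miR-574-5p, a repeat of u and g letters from an intron of FAM114A1 (chr4:38868032-38868127, plus strand), had 747 and 595 scaled CPM in HT55, 3214 and 3147 in SW1116 and 2026 and 1212 in RCM-1. The difference was -1.76 ± 0.31 (adjusted p = 0.000212) and held in every alternative setting. Its partner miR-574-3p, with 95.5 and 97.6 in HT55 against 127 to 279, was also below all 4 other libraries and was not called (difference -0.93, adjusted p = 0.24). miR-335-3p, from an intron of the imprinted gene MEST (chr7:130496111-130496204, plus strand), had 773 and 539 in HT55 against 1499 to 2249 (difference -1.47 ± 0.35, adjusted p = 0.00449, and 0.119 without HT55 replicate 2). miR-374b-5p, from an intron of FTX, a non-coding gene (chrX:74218547-74218618, minus strand), had 816 and 1088 against 1564 to 2510 (difference -1.20 ± 0.29, adjusted p = 0.00469, and 0.106 without HT55 replicate 1). The HT55 libraries did not overlap the others for either of them.

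Another 5 of the 12 lower miRNAs that met the naming rule were scarcer, at under 220 scaled CPM in each HT55 library. miR-193b-3p had 43.4 and 93 in HT55 against 141 to 262 (difference -1.50, adjusted p = 0.0301), and miR-365a-3p from the same cluster had 52.1 and 41.8 against 58.8 to 207 (-1.44, adjusted p = 0.0956). The table gives miR-365a-3p and miR-365b-3p the same count in every library, so they are one measurement. miR-193b-3p was the one called of 7 tested entries in their list, and 7.86% of all tested miRNAs were lower. The list median of -1.44 counts that shared measurement more than once. It also includes miR-365b-5p, with 0 counts in HT55 and 4 in the other lines. The median is therefore not read as a shift of the list: miR-193a-5p stood at -0.18, miR-193b-5p at -0.10 and miR-365a-5p at 1.18. miR-16-2-3p, from an intron of SMC4, had 86.8 and 214 against 272 to 562 (-1.46, adjusted p = 0.0435). It was the one called in the miR-15 and miR-16 family. All 7 tested members were below 0 (median -0.99, against 0.06 over all tested miRNAs). miR-95-3p (-1.41, adjusted p = 0.0433), miR-28-5p (-1.38, adjusted p = 0.0172) and miR-339-5p (-1.16, adjusted p = 0.0433) had 122 to 209 scaled CPM in the HT55 libraries and 288 to 677 in the other 4. Under library totals the calls of all 5 ended (adjusted p 0.0741 to 0.135). Under limma-voom those of miR-193b-3p, miR-339-5p and miR-16-2-3p ended (0.0763 to 0.113). Each of these 5 calls ended without HT55 replicate 1 (adjusted p 0.18 to 0.378). Those of miR-193b-3p (adjusted p = 0.0879), miR-95-3p (0.135), miR-28-5p (0.119) and miR-339-5p (0.149) also ended without HT55 replicate 2. Further losses (adjusted p 0.0505 to 0.118) came without SW1116 replicate 1 for miR-193b-3p, miR-95-3p and miR-339-5p, without SW1116 replicate 2 for miR-95-3p, miR-339-5p and miR-16-2-3p, without RCM-1 replicate 1 for miR-193b-3p and miR-16-2-3p, and without RCM-1 replicate 2 for miR-95-3p and miR-339-5p.

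The HOX-embedded miRNAs were mixed, with 1 higher and 2 lower of 6 tested. The shares over all tested miRNAs were 9.43% and 7.86%. miR-10a-5p, the most abundant miRNA of all 6 libraries, lies within the HOXB genes (chr17:48579838-48579947, minus strand, intron of HOXB3). It had 198800 and 173700 scaled CPM in HT55, 399900 and 412000 in SW1116 and 255400 and 253200 in RCM-1 (difference -0.79 ± 0.23, adjusted p = 0.0199). Its 3p arm had 122 and 153 in HT55 against 487 and 486 in SW1116 and 255 and 263 in RCM-1 (difference -1.35 ± 0.40, adjusted p = 0.0191). The order of the lines was the same for both arms, with HT55 lowest and no overlap. Both calls ended without either HT55 library (adjusted p = 0.0849 and 0.276 for the 5p arm, 0.204 and 0.141 for the 3p arm) and under library totals (0.0741 and 0.0803). That of the 5p arm ended too without SW1116 replicate 2 (0.053), RCM-1 replicate 1 (0.0547) or RCM-1 replicate 2 (0.0575). miR-196b-5p, from the HOXA genes, had 1763 and 949 in HT55 against 561 to 922 (difference 0.88, adjusted p = 0.0469), and that call ended without HT55 replicate 1 (adjusted p = 0.668), SW1116 replicate 2 (0.108), RCM-1 replicate 1 (0.0761) or RCM-1 replicate 2 (0.112).

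Of 18 tested miRNAs linked to inflammation and to the epithelial-mesenchymal transition, 2 were higher and 4 lower in HT55. Over all tested miRNAs the shares were 9.43% and 7.86%. miR-21-5p, which is raised in many tumours, had 40710 and 46380 scaled CPM in HT55, 139700 and 136300 in SW1116 and 92590 and 58790 in RCM-1. HT55 was below all 4 (difference -1.23 ± 0.29, adjusted p = 0.0043), and the call held without each library in turn. miR-29a-3p, which represses collagen genes, had 1337 and 2399 in HT55, 4138 and 2492 in SW1116 and 4438 and 4601 in RCM-1 (difference -1.04 ± 0.28, adjusted p = 0.0104, but 0.286 without HT55 replicate 1 and 0.0803 under library totals). The 2 higher ones were miR-146a-5p and miR-155-5p, both NF-kB-induced. miR-146a-5p had 2189 and 2813 in HT55, 1590 and 796 in SW1116 and 1405 and 1035 in RCM-1 (difference 1.05 ± 0.26, adjusted p = 0.00582). miR-155-5p had 8963 and 11690, 6079 and 2812, and 6517 and 4855 (difference 1.04 ± 0.28, adjusted p = 0.0106). Both lay above all 4 other libraries, and both calls ended without HT55 replicate 2 (adjusted p = 0.0946 and 0.113), that of miR-155-5p also without SW1116 replicate 2 (0.053). miR-146b-5p, with the seed of miR-146a-5p, was not called (difference -0.41, adjusted p = 0.425, with 591 and 549 in HT55 against 426 to 1281).

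Since the 2 comparison lines can differ from each other, each was also set against HT55 on its own in the same fit. Against SW1116, 32 miRNAs were higher in HT55 (10.1%) and 33 lower (10.4%). Against RCM-1, 26 were higher (8.18%) and 17 lower (5.35%). Between SW1116 and RCM-1, 26 were higher in SW1116 (8.18%) and 17 lower (5.35%). These comparisons share libraries, so their values are only set side by side.

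Some differences from the mean held at a like size against each line. miR-1246 differed from SW1116 by 3.59 and from RCM-1 by 3.78, miR-486-5p by 1.59 and 1.47, miR-146a-5p by 1.07 and 1.04 and miR-335-3p by -1.43 and -1.52. Others rested on SW1116. miR-222-3p, an inhibitor of the cell cycle brake p27 together with miR-221-3p, had 16290 and 15990 scaled CPM in HT55, 53450 and 85670 in SW1116 and 15170 and 14680 in RCM-1. HT55 differed from SW1116 by -2.11 (adjusted p = 9.5e-06) and from RCM-1 by 0.11 (adjusted p = 0.885). miR-221-3p, which shares its seed and host gene, had 9032 and 9513, 27790 and 30310, and 9197 and 10040 (-1.65 and -0.05). The calls of both against the mean (adjusted p = 0.00769 and 0.0108) ended without either HT55 library. That of miR-221-3p also ended under library totals (adjusted p = 0.0778).

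miR-9-5p, a neural miRNA, followed the same pattern with 235 and 321 scaled CPM in HT55, 1561 and 1574 in SW1116 and 346 and 195 in RCM-1. So did its 3p arm (17.4 and 37.2, 471 and 351, and 58.8 and 26.6) and let-7e-5p (1207 and 1283, 5172 and 7699, and 909 and 719). Under library totals the calls of miR-9-5p and let-7e-5p against the mean ended (adjusted p = 0.0778 and 0.136). That of let-7e-5p also ended under limma-voom (0.0657). miR-99b-5p and miR-125a-5p, which share a gene cluster with let-7e, were likewise highest in SW1116 and differed from it by -2.29 and -2.56, but were not called against the mean (adjusted p = 0.177 and 0.136). Of 7 tested neural miRNAs, the 3 called were lower: both miR-9 arms and miR-7-5p. Over all tested miRNAs 7.86% were lower and 9.43% higher. The miR-7-5p call ended without HT55 replicate 1 (adjusted p = 0.187), HT55 replicate 2 (0.262), SW1116 replicate 2 (0.053) or RCM-1 replicate 1 (0.105) and under library totals (0.136). In the other direction, miR-148a-3p had 10350 and 9360 in HT55, 2010 and 1019 in SW1116 and 9118 and 6949 in RCM-1, so its difference of 2.70 from SW1116 stood beside 0.30 from RCM-1 (adjusted p = 0.591). miR-181d-5p was the reverse, with 313 and 279 in HT55, 214 and 254 in SW1116 and 19.6 and 76.9 in RCM-1 (0.33 and 2.47), and it was the one called of 5 tested in the miR-181 family. Against the mean, the calls of let-7e-5p, miR-9-5p, miR-9-3p and miR-181d-5p ended without HT55 replicate 1 (adjusted p = 0.223, 0.204, 0.18 and 0.153) or replicate 2 (0.2, 0.0879, 0.0897 and 0.0874), and likewise without RCM-1 replicate 1 (0.0761, 0.0554, 0.0538 and 0.0896). Those of miR-9-3p and miR-181d-5p ended too without SW1116 replicate 1 (0.0565 and 0.0675), and those of let-7e-5p and miR-181d-5p without SW1116 replicate 2 (0.108 and 0.053), while that of miR-148a-3p held in every alternative setting.

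**Figure D4:**
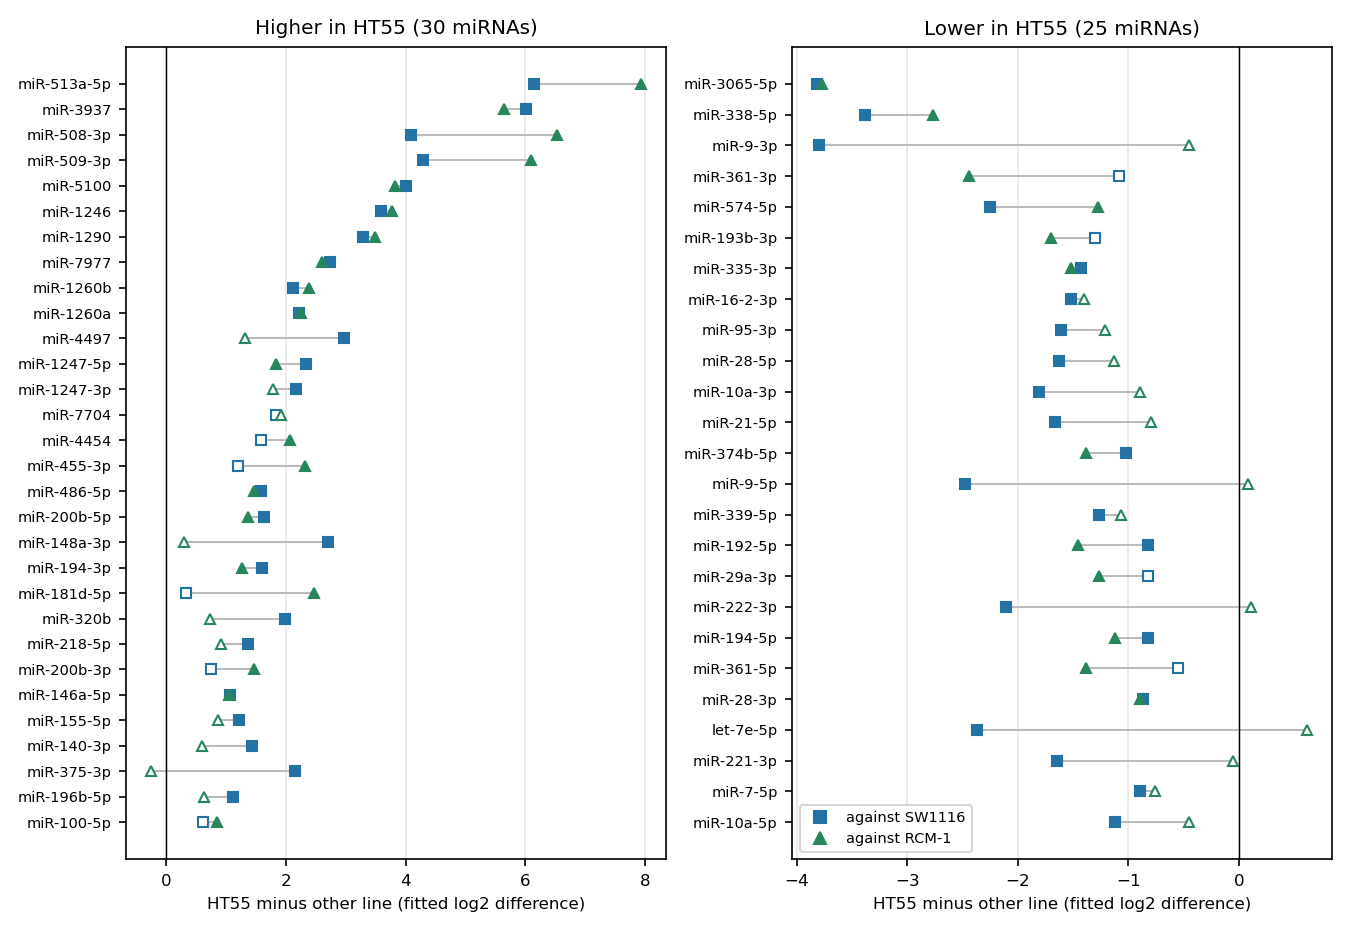
Fitted log2 differences of HT55 from SW1116 (squares) and from RCM-1 (triangles) for the 30 miRNAs higher and the 25 lower in HT55 than in the mean of both lines; filled symbols have an adjusted p below 0.05 in that comparison. Points for miR-513a-5p, miR-508-3p, miR-3937 and miR-3065-5p rest on at most a few counts in some group and are not read as sizes. For miR-9-5p, miR-222-3p and miR-221-3p the squares lie at -2.48, -2.11 and -1.65 and the triangles near 0.

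Families by seed held few joint calls. miR-1260a with miR-1260b and miR-221-3p with miR-222-3p were the only pairs with a shared seed, among the 53 called miRNAs with a sequence, in which both were called. Of the 9 tested miRNAs with the let-7 seed, let-7e-5p was the one called. let-7c-5p, with 3439 and 1711 scaled CPM in HT55 against 3726 to 5473, had a difference of -0.81 (adjusted p = 0.055). It was called with limma-voom (adjusted p = 0.0454) and with the 6 libraries alone (0.0238). let-7b-5p, with 85610 and 48980 in HT55 against 61300 to 148300, overlapped the others (-0.46, adjusted p = 0.262). In the miR-320 family miR-320b was higher (1624 and 921 in HT55 against 252 to 878; difference 1.36 ± 0.33, adjusted p = 0.00582, and 0.222 without HT55 replicate 1), and miR-320c (1.01, adjusted p = 0.061) and miR-320d (0.82, adjusted p = 0.17) were not called. miR-320c was called with library totals as the scaling (adjusted p = 0.02) and with the 6 libraries alone (0.0402). How reads were split between such near-identical sequences is not given in the sources used here.

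miR-100-5p, from the host gene MIR100HG, had 4976 and 6500 scaled CPM in HT55, 4288 and 3204 in SW1116 and 3674 and 2685 in RCM-1, a difference of 0.74 ± 0.23 (adjusted p = 0.0301). It shares its seed with miR-99a-5p, which had 391 and 507 in HT55 against 364 to 1298 (-0.67, adjusted p = 0.349). The miR-100-5p call ended without HT55 replicate 2 (adjusted p = 0.272), SW1116 replicate 2 (0.101) or RCM-1 replicate 2 (0.119). In the list of the miR-99, miR-100 and miR-125 clusters, 1 of 10 tested members was higher and 1, let-7e-5p, lower (median -0.63). Shares over all tested miRNAs were 9.43% and 7.86%. The 3 lines compared were below the other 3, where miR-100-5p ran from 9682 to 68740.

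Several gene clusters gave no call. None of the 8 tested members of the oncogenic miR-17-92 cluster was called, and its most abundant one, miR-92a-3p, had 119000 and 101900 scaled CPM in HT55, 42540 and 70550 in SW1116 and 127700 and 130000 in RCM-1 (difference 0.37, adjusted p = 0.304). With library totals as the only scaling miR-92a-3p was called (difference 0.63, adjusted p = 0.0349). The miR-106b-25 cluster (6 tested), the miR-106a-363 cluster (7), the miR-30 family (9), the miR-183-96-182 cluster (3), the CLCN5 cluster (8) and the let-7 miRNAs outside the miR-99 and miR-125 clusters (10) were also without a call. Their medians ran from -0.31 to 0.41. miR-34a-5p, a p53 target, had 252 and 242 in HT55 against 113 to 299 (0.35, adjusted p = 0.609). The squamous marker miR-205-5p had 78.2 and 153 in HT55, 509 and 727 in SW1116 and 65.4 and 47.3 in RCM-1 (-0.60, adjusted p = 0.346). miR-224-5p, from an exon of the receptor gene GABRE, had 4846 and 4747 in HT55 against 4917 to 10900 in the other 4, which it did not overlap (-0.73, adjusted p = 0.0513). DESeq2, limma-voom and the fit of the 6 libraries alone did call it (adjusted p = 0.0287, 0.0488 and 0.0364). miR-31-5p, with 122 and 177 in HT55 against 161 to 270, did overlap (-0.54, adjusted p = 0.34).

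The imprinted 14q32 cluster and the stromal and muscle list had no call either, though every tested member was above 0. The median over all tested miRNAs was 0.06. In the 14q32 cluster the median over 6 tested members was 1.22, with miR-127-3p at 148 and 135 scaled CPM in HT55 against 34.5 to 69.2 (1.31, adjusted p = 0.0798) and miR-409-3p at 95.5 and 200 against 53.6 to 85 (1.26, adjusted p = 0.0929). In the stromal list the median over 4 was 1.22, with miR-1-3p at 547 and 460 in HT55 against 112 to 503 (0.59, adjusted p = 0.349) and miR-143-3p at 252 and 214 against 91.7 to 150 (1.00, adjusted p = 0.0798). The remaining entries, miR-199a-3p (1.53) and miR-199b-3p (1.44), have the same mature sequence, so that median counts 1 sequence more than once. The summed level of the stromal list was 964 and 911 scaled CPM in HT55 and 326 to 752 in SW1116 and RCM-1. The lack of calls depended on the scaling. With library totals, which moved differences up by a median of 0.262, miR-127-3p, miR-409-3p and miR-143-3p were called (adjusted p = 0.0365, 0.0354 and 0.0285).

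**Figure D5:**
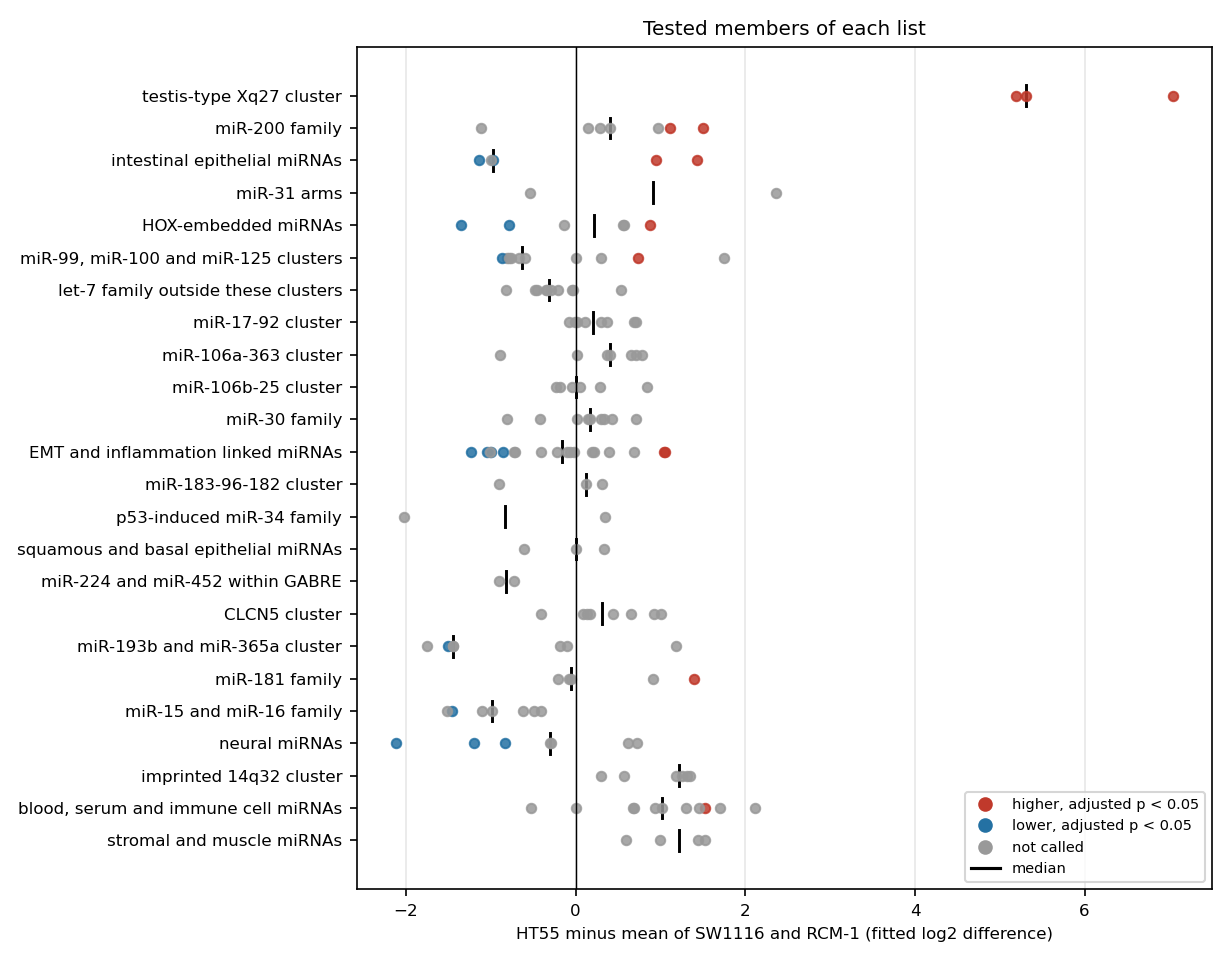
Fitted log2 difference of HT55 from the mean of SW1116 and RCM-1 for every tested member of 24 lists, with the median of each list as a vertical bar. Red points were higher and blue points lower at an adjusted p below 0.05. The 3 tested Xq27 members lie past 5, of which 2 passed the filter through HT55 alone, and the intestinal list is split between 2 red and 2 blue points; the right-most Xq27 point, miR-513a-5p, rests on 1 count outside HT55.

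The sets were alike in length, and GC content was lowest in the lower set. The median length was 22 bases among higher, lower and all tested miRNAs with a sequence, and the median GC content was 50%, 42.2% and 50%. The letters GGAG, a motif known to steer miRNAs into vesicles when bound by hnRNPA2B1, occur in 13.8% of the 29 higher miRNAs with a sequence, in 8.3% of the 24 lower ones and in 10.5% of all 286. They are present in miR-1246, miR-508-3p, miR-513a-5p and miR-1247-3p on the higher side and in let-7e-5p and miR-339-5p on the lower. A match is a property of the letters and was not read as a sorting signal.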

How the data were processed

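Vesicle small RNA of 6 cell lines was measured in 12 libraries. The authors deposited raw counts of 1636 mature miRNAs as whole numbers. They also deposited a table of log2 values, which equalled log2(CPM + 1) of the counts in all 19632 cells (tolerance 1e-12) and was not otherwise used. Per the submitters' processing notes, the genome was hg38. For the aligner, counter, miRNA annotation and any collapsing of molecular tags the answer is: not given in the sources used here. Without collapsing, counts are not independent molecules.

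All 12 libraries entered 1 fit in edgeR 4.0.16 (R 4.3.3): filterByExpr by line, TMM scaling, robust glmQLFit with 1 mean per line, then glmQLFTest of HT55 against the mean of SW1116 and RCM-1 and of the 3 pairs of these lines. The other 3 lines stay out of the contrast but share in the filter, the TMM scaling and the estimate of spread. The common biological coefficient of variation was 0.304, with 6 residual degrees of freedom. With the 6 libraries alone 265 miRNAs were tested. miR-5100 and miR-7977 reached the filter's cutoff in 1 HT55 library, in no SW1116 or RCM-1 library and in 4 libraries of the other lines. Benjamini-Hochberg adjustment ran over 318 miRNAs, with a threshold of 0.05. The SE is the difference divided by the square root of F. Where a side held 1 to 3 counts, the pooled CPM ratio is given with an exact 95% interval. The procedure was tested on simulated data.

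The members, lists and rules were chosen with earlier results of these data known. The text names, per direction, the 12 largest differences among called miRNAs with a mean of at least 100 scaled CPM and HT55 values all above or all below those of SW1116 and RCM-1. Named as well are up to 6 tested and 3 untested members of each of 25 lists, and their neighbours by seed or locus; other called miRNAs were named after their values were seen. Lists are described by counts and medians. The list of C19MC and miR-371-373 miRNAs had no tested member.

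Sequences and hairpin positions are from RefSeq (GRCh38.p14), and gene overlaps on the same strand from GENCODE release 29. Alternatives were RLE size factors, library totals, testing every miRNA with a count, a minimum of 10 CPM in 2 libraries, DESeq2 1.42.0, limma-voom (limma 3.58.1), a fit of the 6 libraries only, the replicate number as a block, removal of the 10 most abundant miRNAs, and removal of each of the 6 libraries in turn, where a line left with 1 library takes its spread from the rest.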

Additional observations from a re-analysis of the deposited data

How the results depend on the processing

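Against the mean of SW1116 and RCM-1 (30 higher, 25 lower), library totals as the only scaling gave 47 and 10, the filter of 10 CPM in 2 libraries 36 and 25 and the 6 libraries alone 38 and 29. Leaving out 1 library at a time gave 21 to 35 higher and 7 to 25 lower. Of the 55 called miRNAs, 11 (8 higher, 3 lower) passed in all 15 alternatives, and miR-21-5p and miR-513a-5p in the 14 that gave them an adjusted p. For miR-508-3p, miR-3937, miR-513a-5p and miR-338-5p, which passed the filter through 1 side alone, these passes add no support. Calls were also gained: miR-223-3p, miR-224-5p and let-7c-5p, for example, were called in several alternatives. miR-7977 and miR-7704 reversed without HT55 replicate 2, to -0.46 and -0.91, and stood at 3.51 and 2.70 without replicate 1. Against SW1116 (32 and 33), library totals gave 55 and 13, and leaving out 1 library 21 to 34 and 17 to 34. Against RCM-1 (26 and 17), limma-voom gave 16 higher, and leaving out 1 library 10 to 27 and 2 to 13. Between SW1116 and RCM-1 (26 and 17), library totals gave 16 and 38, and leaving out 1 library 18 to 34 and 6 to 16. There no filter gave 8 lower, the filter of 10 CPM in 2 libraries 11 and DESeq2 11. The cause of these changes was not tested, except that fewer libraries enter where 1 is left out. The replicate numbers did not pair the libraries of the 3 lines alike. Deviations of same-numbered libraries correlated at -0.23 for HT55 with SW1116, -0.05 for HT55 with RCM-1 and 0.27 for SW1116 with RCM-1. A pairing of the SW1116 and RCM-1 libraries was not tested. With the replicate block 31 were higher and 26 lower, and 54 of the 55 calls were kept. In HT55 1 count was worth 4.83 to 7.21 CPM, which limits the precision of scarce miRNAs.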
